A study of Marchantia polymorpha and Lactuca sativa with 27 samples.

Results

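MpMTPSL2 (locus Mp3g18500), annotated as a microbial terpene synthase-like gene, and MpCPT5 (Mp3g18510), annotated as a cis-prenyltransferase, carry consecutive locus numbers on chromosome 3 of the liverwort Marchantia polymorpha. They are 2 of the 19355 genes in the read-count table, and they were taken by locus number and described in every group of genotype and medium. The pair was chosen by its read counts, with the values of all 6 groups in these libraries known, so its levels and fold changes are given as descriptions, without p-values.

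RNA came from whole plants of the mutant Mpwrky10 and of wild-type Tak-1, a male laboratory accession. Gemmalings, the plantlets that grow from asexual propagules, were moved at 7 days to Yamagami liquid medium and kept there for 5 days. Each genotype has 3 libraries from medium labelled as phosphate-free (0 mM phosphate), 3 from medium labelled as nitrate-free (0 mM nitrate) and 3 from full medium, which holds 2 mM phosphate and 10 mM nitrate, so that 18 libraries fall into 6 groups. The labels do not give the kind of mutation, the number of independent mutant lines or whether replicates were separate cultures, so the spread between replicates may be technical.

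Terpenes are built from isoprenoid units that plants make by the mevalonate pathway in the cytosol and the methylerythritol phosphate (MEP) pathway in plastids. Prenyltransferases join these units into prenyl diphosphates, the cis type with the new double bond in the Z configuration, and terpene synthases turn prenyl diphosphates into terpene skeletons. Land plants other than seed plants also hold terpene synthases that resemble microbial enzymes, and liverworts store terpenes in oil bodies, organelles of scattered single cells. WRKY proteins are plant transcription factors. What MpMTPSL2 and MpCPT5 make was not measured here.

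The libraries held 18165419 to 25544702 counts each, so 1 count was worth 0.0391 to 0.056 CPM (counts per 1000000 counts of the library) after scaling by trimmed mean of M-values (TMM). The transcript of MpWRKY10 itself was still counted in the mutant. It averaged 27.2 ± 1.68 CPM in Mpwrky10 and 29.8 ± 1.34 CPM in Tak-1 in medium labelled phosphate-free, and 18.7 ± 3.45 CPM in Mpwrky10 and 19.5 ± 2.61 CPM in Tak-1 in full medium (SD, n = 3 each). Its mean in medium labelled nitrate-free was 35.7 ± 1.65 CPM in Mpwrky10 and 23.5 ± 2.91 CPM in Tak-1 (SD, n = 3 each; adjusted p = 0.00138, edgeR quasi-likelihood test). The counts of MpWRKY10 therefore do not check the genotype labels. In Tak-1, 7 of 7 tested PTB phosphate transporter genes rose in medium labelled nitrate-free against full medium, and 1 of 7 rose in medium labelled phosphate-free, where 20.6% and 26.3% of all tested genes rose. In Tak-1 again, 8 of 8 tested AMT ammonium transporter genes rose in medium labelled phosphate-free and 6 of 8 in medium labelled nitrate-free, beside the same 26.3% and 20.6%. With single libraries left out, these AMT counts ranged from 7 to 8 and from 4 to 6. The nitrate-free call of MpAMT1.3 was lost in 14 of these leave-outs and under DESeq2 (adjusted p = 0.0721). In Tak-1 the median log2 fold change of the PTB genes over full medium was 9.20 labelled nitrate-free and 0 labelled phosphate-free. For the AMT genes these medians were 1.81 and 3.84. Labelled nitrate-free over labelled phosphate-free, the medians were 5.00 for PTB and -1.56 for AMT, against -9.15e-05 over all tested genes. Whether the media match their labels was not tested, and they are called here only by their labels. On the first principal component of log2 CPM, which held 43.5% of the variance, replicate 1 of Tak-1 in medium labelled nitrate-free lay at 18.6, against 43.5 and 39.3 for the other replicates, and the Mpwrky10 libraries labelled phosphate-free spread over 8.50, 23.0 and -3.60.

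MpMTPSL2 was high in every Tak-1 library and near the bottom of the measurable range in every Mpwrky10 library. In medium labelled phosphate-free its level was 0.516, 0.787 and 0.642 CPM in the 3 Mpwrky10 libraries, against 36.8, 39.4 and 38.8 CPM in the Tak-1 libraries. The levels in medium labelled nitrate-free were 0.379, 0.292 and 0.204 CPM in Mpwrky10, against 18.95, 18.6 and 18.97 CPM in Tak-1. In full medium it was 0.526, 0.805 and 0.685 CPM in Mpwrky10, against 22.2, 16.5 and 13.9 CPM in Tak-1. The highest mutant library stayed below the lowest wild-type library in all 3 media. Such a gap, with the mutant lower, was found for 17.5% of the 13016 tested genes in medium labelled phosphate-free, 18% in medium labelled nitrate-free and 10% in full medium.

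MpCPT5 was close to undetected in the mutant. It had 0, 1 and 1 counts in the Mpwrky10 libraries labelled phosphate-free, 0, 0 and 0 counts in those labelled nitrate-free and 0, 1 and 0 counts in full medium. In Tak-1 it had 328, 422 and 458 counts in medium labelled phosphate-free, 194, 181 and 161 counts in medium labelled nitrate-free and 194, 217 and 90 counts in full medium. On the CPM scale the Tak-1 levels were 15.6, 19.8 and 17.9 CPM in medium labelled phosphate-free, 8.97, 10.1 and 8.61 CPM in medium labelled nitrate-free, and 9.78, 8.52 and 4.63 CPM in full medium. Over the 9 Mpwrky10 libraries the gene had 3 counts in all, with 6 libraries at 0, against 2245 counts over the 9 Tak-1 libraries. MpMTPSL2 kept 100 counts over the 9 Mpwrky10 libraries, 4 to 17 in each, against 4834 counts in Tak-1, 270 to 992 in each. The gene was therefore counted in every mutant library, which MpCPT5 was not.

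**Figure D1:**
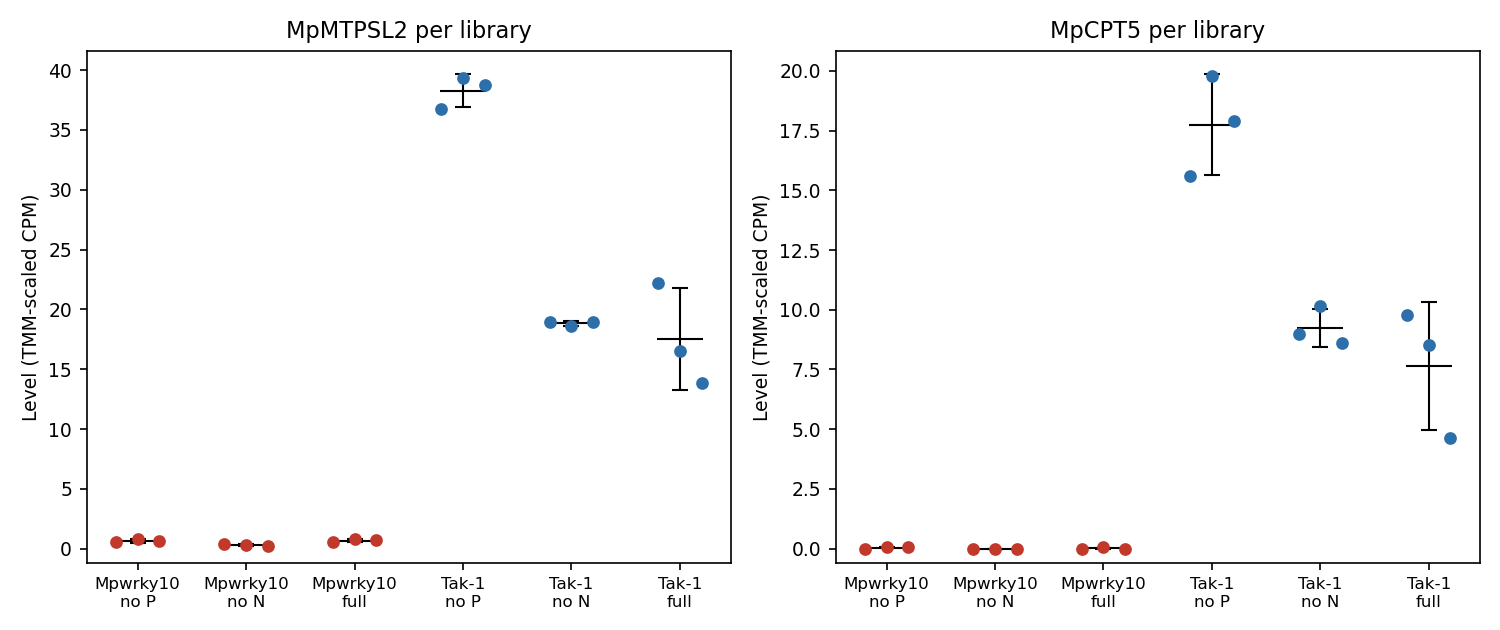
Levels of MpMTPSL2 and MpCPT5 (TMM-scaled CPM, vertical axes, which differ between the panels) in each of the 18 libraries, by genotype and labelled medium (no P, phosphate-free; no N, nitrate-free). Points are libraries, horizontal lines are group means and bars are SD (n = 3). Mpwrky10 libraries (red) lie at or near 0 for both genes, and Tak-1 libraries (blue) are highest in medium labelled phosphate-free.

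**Figure D2:**
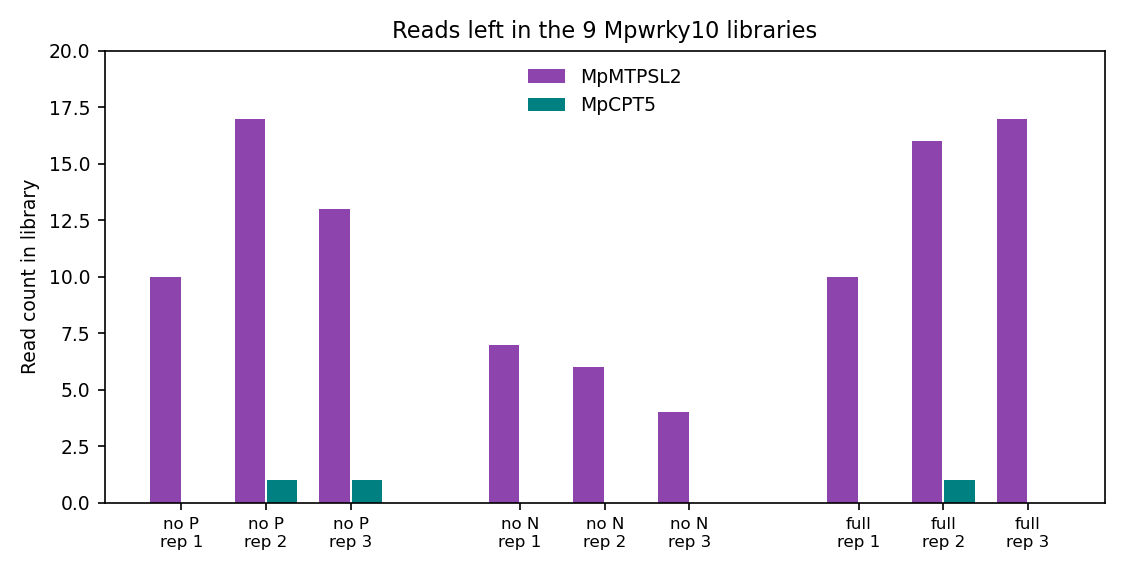
Read counts of MpMTPSL2 (purple) and MpCPT5 (green) in each of the 9 Mpwrky10 libraries, by labelled medium and replicate. MpMTPSL2 had 4 to 17 counts in every library, and MpCPT5 had 1 count in 3 libraries and 0 in the other 6.

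As a share of the Tak-1 level, from counts summed over replicates and scaled by TMM, MpMTPSL2 in Mpwrky10 stood at 1.70% in medium labelled phosphate-free (95% exact binomial interval 1.21 to 2.33%). The share was 1.54% in medium labelled nitrate-free (0.892 to 2.47%), and in full medium 3.86% (2.78 to 5.24%). The fitted log2 fold changes, Mpwrky10 over Tak-1, were -5.86 (SE 0.190) in medium labelled phosphate-free, -5.99 (SE 0.222) in medium labelled nitrate-free and -4.69 (SE 0.191) in full medium. Each SE here and below is the size of the fold change divided by the square root of the edgeR F statistic. In all 3 media the exact intervals are wider than these SEs imply, so the SEs understate the error at such low counts. Ordered from the most negative fold change, the gene held ranks 15, 16 and 24 of the 13016 tested genes in these 3 comparisons. MpCPT5 in Mpwrky10 stood at 0.184% of the Tak-1 level in medium labelled phosphate-free, from 2 counts against 1208 (0.0222 to 0.665%). In full medium it stood at 0.203%, from 1 count against 501 (0.00512 to 1.14%), and at 0.332% without replicate 3 of Mpwrky10. In medium labelled nitrate-free it had 0 counts in Mpwrky10 against 536 in Tak-1, which puts it at least 180.2-fold lower when a floor of 3 counts over the group is used. With 1 mutant library fewer this bound dropped, to 117-fold without replicate 2 and 120-fold without replicate 3 of Mpwrky10 labelled nitrate-free. The intervals and the floor cover counting error only. In whole-plant RNA, fewer cells that make a transcript and less transcript per cell cannot be told apart.

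In these counts the 2 genes did not keep their reads in the same proportion. MpCPT5 made up 3 of 103 counts of the pair in Mpwrky10, or 2.91% (95% exact binomial interval 0.605 to 8.28%), against 2245 of 7079 counts in Tak-1, or 31.7% (30.6 to 32.8%). Among the Tak-1 media the share was 31.7% in medium labelled phosphate-free, 32.8% in medium labelled nitrate-free and 30.7% in full medium, and it ran between 25% and 35.3% in single Tak-1 libraries. The pair thus kept close to 1 ratio across the wild-type media, whereas the mutant share lay below that of every wild-type library. By medium, MpCPT5 had 2 of 42 mutant counts labelled phosphate-free (upper limit 16.2%), 0 of 17 labelled nitrate-free (19.5%) and 1 of 44 in full medium (12.0%). These intervals pool reads over libraries and cover counting error only. How reads shared with related genes were assigned is not given, so the origin of the few MpMTPSL2 reads in the mutant is uncertain.

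Within Tak-1, both genes stood highest in medium labelled phosphate-free. MpMTPSL2 averaged 38.3 ± 1.35 CPM in medium labelled phosphate-free against 17.5 ± 4.25 CPM in full medium (SD, n = 3 each), a log2 fold change of 1.13 (SE 0.130). MpCPT5 averaged 17.8 ± 2.10 CPM in medium labelled phosphate-free against 7.64 ± 2.69 CPM in full medium (SD, n = 3 each), a log2 fold change of 1.21 (SE 0.218). The libraries of these media did not overlap for either gene, and 31.6% of tested genes were likewise higher without overlap in Tak-1 in medium labelled phosphate-free than in full medium. On average MpMTPSL2 stood at 18.8 ± 0.209 CPM and MpCPT5 at 9.24 ± 0.803 CPM in medium labelled nitrate-free (SD, n = 3 each), and for both genes these libraries overlapped with those of full medium. The log2 fold changes of medium labelled nitrate-free over full medium were 0.10 (SE 0.132) for MpMTPSL2 and 0.27 (SE 0.221) for MpCPT5. Replicate 3 in full medium was the lowest for both genes, and without it these values were -0.04 and 0.01. Against medium labelled phosphate-free, medium labelled nitrate-free was lower by a log2 fold change of -1.02 (SE 0.130) for MpMTPSL2 and -0.94 (SE 0.216) for MpCPT5. Those libraries did not overlap either, as was the case, in the same direction, for 24.7% of tested genes.

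Within Mpwrky10 the order of the media was not the wild-type order. MpMTPSL2 averaged 0.648 ± 0.136 CPM in medium labelled phosphate-free and 0.672 ± 0.140 CPM in full medium (SD, n = 3 each), and these libraries overlapped (log2 fold change -0.05, SE 0.290). Leaving out single libraries of these groups moved this difference between -0.22, without replicate 2 labelled phosphate-free, and 0.09, without replicate 1 labelled phosphate-free or replicate 2 in full medium. In medium labelled nitrate-free it averaged 0.291 ± 0.0876 CPM (SD, n = 3), below every library of the other media. The log2 fold change was -1.20 (SE 0.349) against full medium and -1.15 (SE 0.354) against medium labelled phosphate-free, where 19.8% and 16.6% of tested genes were lower without overlap. These differences rest on 4 to 17 counts per library, and their SEs may understate the error. The change from full medium to medium labelled phosphate-free was smaller in Mpwrky10 than in Tak-1 by -1.18 on the log2 scale (SE 0.321), and the change from full medium to medium labelled nitrate-free was lower by -1.31 (SE 0.374). Ordered from the most negative, these 2 values held ranks 222 and 181 of the 13016 tested genes. No call is made for MpMTPSL2, and 0.307% and 2.13% of all tested genes were called for these interactions. For MpCPT5 the mutant media cannot be ordered, since each held at most 2 counts.

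From high to low, the groups of MpMTPSL2 were Tak-1 labelled phosphate-free, then Tak-1 labelled nitrate-free and Tak-1 in full medium, which did not differ beyond their spread, then Mpwrky10 in full medium and Mpwrky10 labelled phosphate-free, which overlapped, and last Mpwrky10 labelled nitrate-free. MpCPT5 had the same order over the Tak-1 groups, with all Mpwrky10 groups below them.

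The next question was whether genes beside the pair moved with it. Of the 10 loci on either side, 20 in all, 3 were at 0 in every library and 15 could be tested. By edgeR's quasi-likelihood test with Benjamini-Hochberg adjustment over all tested genes, Mpwrky10 against Tak-1 changed 1 neighbour upward and 4 downward in medium labelled phosphate-free, 3 upward and 3 downward in medium labelled nitrate-free, and 2 upward and 2 downward in full medium. Over all tested genes 6.61%, 19.4% and 4.24% were called in these comparisons. In full medium 2 neighbours were called without replicate 2 of Mpwrky10.

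The locus after MpCPT5 went the other way. Mp3g18520, which the name table lists without a symbol, had 11.8, 16.1 and 16.0 CPM in Mpwrky10 labelled phosphate-free, against 4.32, 4.97 and 4.26 CPM in Tak-1. Its level in medium labelled nitrate-free was 23.6, 23.7 and 22.8 CPM in Mpwrky10, against 3.005, 2.97 and 2.94 CPM in Tak-1. In full medium it had 11.2, 14.6 and 14.0 CPM in Mpwrky10, against 1.815, 2.00 and 2.11 CPM in Tak-1. It was thus higher in all 9 mutant libraries than in any wild-type library. The log2 fold changes were 1.70 (SE 0.132, adjusted p = 3.39e-08), 2.97 (SE 0.140, adjusted p = 1.97e-11) and 2.75 (SE 0.146, adjusted p = 1.5e-10) by edgeR, in the same order of media. On the other flank, Mp3g18490, the locus before MpMTPSL2, was not called by genotype in any medium and stayed below 1 CPM. Its log2 fold changes were -0.62, -1.49 and -0.36 in the same order of media (adjusted p = 0.548, 0.0799 and 0.861, edgeR). The loci from Mp3g18450 to Mp3g18490 all had negative fold changes in medium labelled phosphate-free and full medium, most of them not called. In medium labelled nitrate-free Mp3g18480 stood at 0.20.

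Farther out, some of the other neighbours were also called in at least 1 medium. Mp3g18540 was lower in Mpwrky10 in medium labelled phosphate-free (log2 fold change -0.41, adjusted p = 0.00175, edgeR) and higher in medium labelled nitrate-free (0.45, adjusted p = 0.000315). Its call in full medium (0.34, adjusted p = 0.012) was lost without replicate 2 of Mpwrky10 (adjusted p = 0.0606) and without replicate 3 of Tak-1 (adjusted p = 0.0557). MpPOD34, annotated as a peroxidase by its symbol, had 61 counts in Mpwrky10 against 370 in Tak-1 in medium labelled phosphate-free, a log2 fold change of -2.45 (adjusted p = 0.00347, edgeR). MpPOD34 had 67 counts in Mpwrky10 against 331 in Tak-1 in medium labelled nitrate-free (-2.35, adjusted p = 0.00184). Mp3g18470 had 4 counts in Mpwrky10 against 56 in Tak-1 in full medium (-3.70, adjusted p = 0.0012, edgeR). MpTRIHELIX32, a trihelix factor by its symbol, fell in medium labelled nitrate-free (-0.53, adjusted p = 0.00056, edgeR), and Mp3g18580 fell in medium labelled phosphate-free (-0.68, adjusted p = 0.00159). The span of Mp3g18580 overlaps that of MpPAL-like1 in the name table's assembly, and since the strand setting of the counting is not given in the sources used here, its reads are uncertain. Mp3g18450, Mp3g18460 and Mp3g18530 were also called, in medium labelled nitrate-free (-0.84, adjusted p = 0.012), in medium labelled phosphate-free (-1.34, adjusted p = 0.0374) and full medium (-1.58, adjusted p = 0.0413), and in medium labelled nitrate-free (0.37, adjusted p = 0.0267). Mp3g18450 lost its call without replicate 2 of Tak-1 labelled nitrate-free (adjusted p = 0.0533), and Mp3g18530 lost it without that library (adjusted p = 0.123) or any of the Mpwrky10 libraries labelled nitrate-free (0.0568 to 0.0648). Mp3g18460 lost its call in medium labelled phosphate-free without any Tak-1 library of that medium or replicate 1 or 3 of Mpwrky10 (0.0623 to 0.143), and in full medium without any of 10 libraries (0.0513 to 0.158). MpCPT4, a cis-prenyltransferase among the neighbours, had 5 counts in Tak-1 labelled phosphate-free and 0 in every other group.

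**Figure D3:**
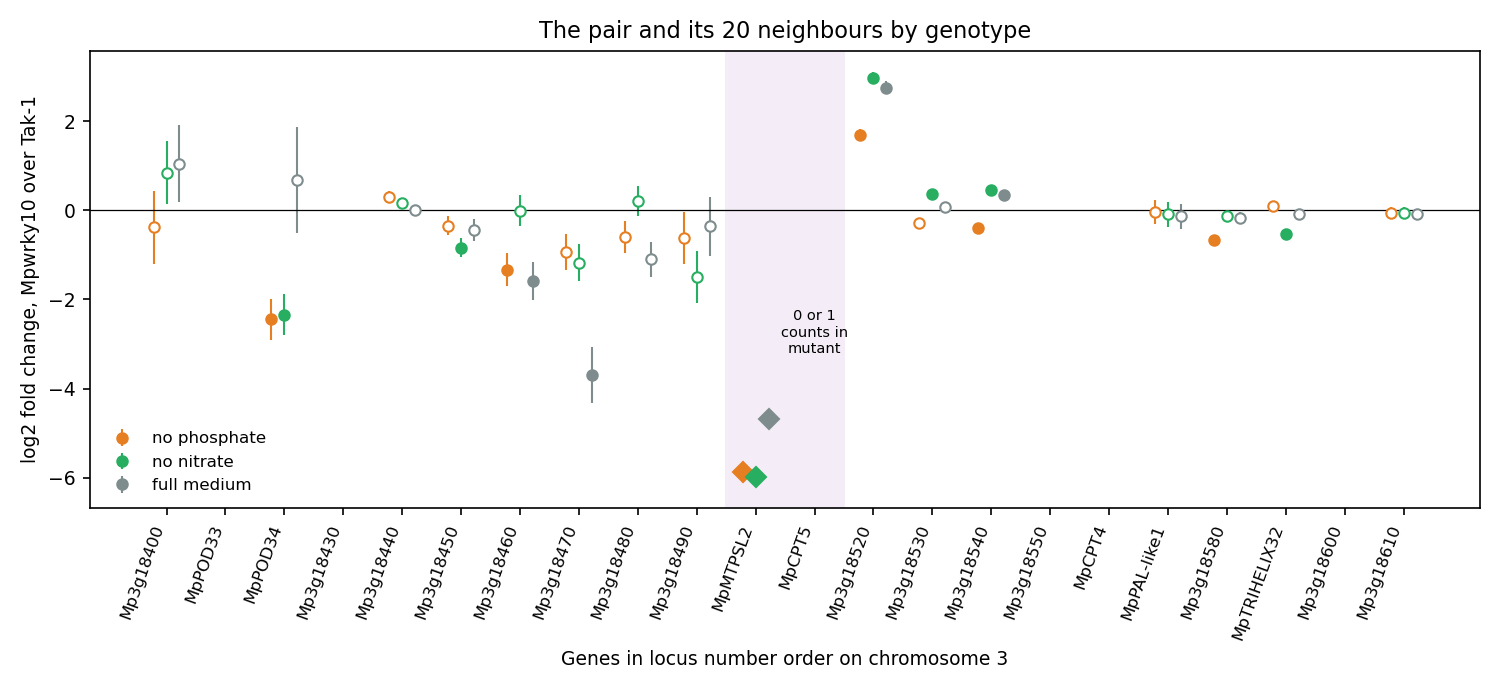
Log2 fold change of Mpwrky10 over Tak-1 (vertical axis) for the pair (shaded, diamonds, no test) and its 20 neighbours in locus order, by labelled medium. Bars are SE derived from the F statistic, which can understate the error at low counts. Filled circles passed the adjusted threshold of 0.05 and open circles did not, and loci with no circle or diamond had no test, or in the case of MpCPT5 no fold. Mp3g18520, the locus after MpCPT5, lies at 1.70, 2.97 and 2.75, above 0 in all 3 media.

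Beyond the pair, 77 genes carry symbols of terpene synthases, prenyltransferases or the pathways that feed them, of which 13 were at 0 in every library and 51 could be tested. Of the 51, 6 have the symbol TPS, which the name table does not spell out and which may stand for terpene synthases or for trehalose phosphate synthases, so these 6 may lie outside the pathway. Against Tak-1, Mpwrky10 changed 1 of them upward and 12 downward in medium labelled phosphate-free, where 2.66% of all tested genes were called higher and 3.95% lower. The counts were 2 upward and 11 downward in medium labelled nitrate-free (9.59% and 9.82% of all tested genes) and 0 upward and 5 downward in full medium (2.07% and 2.17%), where 4 were higher at an unadjusted p under 0.05 and DESeq2 called 0 higher. The only gene called upward in medium labelled phosphate-free was MpMCT, which makes a MEP pathway intermediate (0.27, adjusted p = 0.0398, edgeR), and it was not called without replicate 3 of Mpwrky10 (adjusted p = 0.193), without replicates 1, 2 or 3 of Tak-1 in that medium (0.149, 0.117 and 0.0592) or without replicate 2 of Tak-1 in full medium (0.0513). Called upward in medium labelled nitrate-free were MpMCT (0.38, adjusted p = 0.00182) and MpCPT2. The median log2 fold changes of the 51 genes were -0.14, -0.11 and -0.00 in medium labelled phosphate-free, in medium labelled nitrate-free and in full medium, against 0.01, 0.01 and -0.01 over all tested genes. MpFTPSL2, MpFTPSL3, MpDXS2 and MpDXR2 were called lower in all 3 media, 4 of 51 or 7.84%, against 1.07% of all tested genes.

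Among the precursor pathways, the genes that moved most were second copies of the first MEP steps. MpDXS2, for 1-deoxy-D-xylulose 5-phosphate synthase, averaged 9.09 ± 0.647 CPM in Mpwrky10 and 53.3 ± 0.736 CPM in Tak-1 in medium labelled phosphate-free (SD, n = 3 each). It averaged 8.34 ± 1.05 CPM in Mpwrky10 and 29.5 ± 1.86 CPM in Tak-1 in medium labelled nitrate-free, and 5.64 ± 1.44 CPM in Mpwrky10 and 25.4 ± 4.67 CPM in Tak-1 in full medium. Its log2 fold changes were -2.55, -1.82 and -2.16 in that order (adjusted p = 4.81e-10, 1.12e-07 and 1.7e-08, edgeR). MpDXS1, the other gene of that enzyme, was not called in any of the 3 media (log2 fold changes 0.05, 0.10 and 0.07, adjusted p = 0.664, 0.261 and 0.664). MpDXR2, for the reductoisomerase of the next step, averaged 2.52 ± 0.723 CPM in Mpwrky10 and 10.6 ± 1.01 CPM in Tak-1 in medium labelled phosphate-free (SD, n = 3 each), and fell in all 3 media (-2.07, -1.66 and -2.27, adjusted p = 1.18e-06, 2.57e-05 and 4.66e-06, edgeR). MpDXR1 was not called in any of the 3 (-0.03, -0.08 and 0.00). Reads of such paired copies may have been divided by the counting. Of the 9 tested MEP genes, 1 rose and 3 fell in medium labelled phosphate-free, 1 rose and 2 fell in medium labelled nitrate-free and 2 fell in full medium. Over all tested genes 2.66%, 9.59% and 2.07% were called higher in these comparisons, and 3.95%, 9.82% and 2.17% lower. The same shares stand beside the genotype counts of the lists below.

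In the mevalonate pathway the changes were small. Of 6 tested genes, 2 fell in medium labelled phosphate-free, 2 in medium labelled nitrate-free and 0 in full medium, where 1 was lower at an unadjusted p under 0.05 and DESeq2 called 0. MpIDI1, for the isomerase that balances the isoprenoid units, fell in medium labelled phosphate-free (-0.30, adjusted p = 0.000841, edgeR), and MpHMGS, for an early enzyme of the pathway, fell in medium labelled nitrate-free (-0.32, adjusted p = 0.0042). The call of MpHMGS in medium labelled phosphate-free (-0.31, adjusted p = 0.013) was lost without replicate 3 of Mpwrky10 (adjusted p = 0.0841) or of Tak-1 (0.0576) in that medium. Of the 5 tested prenyl diphosphate synthase genes, 1 fell in medium labelled phosphate-free (MpIDS1, -0.34, adjusted p = 0.00535, edgeR), 2 in medium labelled nitrate-free (MpIDS4 at -0.53, adjusted p = 0.000195, and MpIDS2 at -0.18, adjusted p = 0.0447) and 0 in full medium by edgeR, DESeq2 or an unadjusted p under 0.05. The call of MpIDS2 was lost without any Tak-1 library of the deficient media, replicate 1 or 2 of Tak-1 in full medium, replicate 2 or 3 of Mpwrky10 labelled nitrate-free or replicate 2 of Mpwrky10 in full medium (adjusted p 0.0503 to 0.157), and without the filter (0.0568). Of 2 tested carotenoid genes 1 fell, in medium labelled nitrate-free, and of 11 tested sterol and triterpene genes 2 fell in medium labelled phosphate-free and 1 in full medium. Of these, MpCYP51, for a sterol demethylase (-0.19, adjusted p = 0.0375, edgeR), was not called in medium labelled phosphate-free without any Tak-1 library of that medium or replicate 1 or 3 of Mpwrky10 (0.0612 to 0.152). MpSQC2, named after its values were seen (-1.28, adjusted p = 0.0117, edgeR), was not called in full medium without replicate 2 of Mpwrky10 (0.05004) or of Tak-1 (0.0559).

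Among terpene synthase genes, the family of MpMTPSL2 had 19 other annotated members, of which 8 were at 0 in every library and 5 could be tested. Of these, 2 fell in medium labelled phosphate-free, 1 fell in medium labelled nitrate-free and 0 were called in full medium, where 1 was lower and 1 higher at an unadjusted p under 0.05 and DESeq2 called 1 lower. MpMTPSL8 fell in medium labelled phosphate-free, with 26.4 ± 0.449 CPM in Mpwrky10 and 51.0 ± 3.16 CPM in Tak-1 (SD, n = 3 each; -0.95, adjusted p = 1.34e-07, edgeR). It was not called in medium labelled nitrate-free (-0.12, adjusted p = 0.329) or full medium (-0.15, adjusted p = 0.406). MpMTPSL1 was not called by genotype in any medium (0.20, -0.16 and 0.10). MpMTPSL22, named here after its values were seen, had 0 counts in all 9 Mpwrky10 libraries and 109, 41 and 21 counts in Tak-1 labelled phosphate-free, labelled nitrate-free and in full medium, and it was called lower in both deficient media (adjusted p = 0.00105 labelled phosphate-free and 0.00394 labelled nitrate-free, edgeR). In full medium it was not called by edgeR (adjusted p = 0.0585). There it was called lower by DESeq2 (adjusted p = 0.00673) and by edgeR without the filter (0.0328). With a floor of 3 counts over the group it was at least 32.7-fold lower in Mpwrky10 in medium labelled phosphate-free, and at least 21.2-fold lower when replicate 2 of Mpwrky10 was left out. In a family annotated FTPSL, a further group of terpene synthase-like genes, 2 of 4 tested genes fell in medium labelled phosphate-free, 3 in medium labelled nitrate-free and 2 in full medium. The third call in medium labelled nitrate-free, MpFTPSL8, was lost without replicate 2 of Mpwrky10 (adjusted p = 0.0716, edgeR) or of Tak-1 (0.0948). MpFTPSL2 averaged 0.148 ± 0.0862 CPM in Mpwrky10 and 40.4 ± 1.66 CPM in Tak-1 in medium labelled phosphate-free (SD, n = 3 each), and its log2 fold changes were -8.05, -6.45 and -6.22 in medium labelled phosphate-free, medium labelled nitrate-free and full medium (adjusted p = 4.11e-16, 9.67e-15 and 2.18e-14, edgeR). MpFTPSL3 fell by a log2 fold change of -3.09, -2.73 and -2.48 (adjusted p = 1.67e-06, 1.19e-05 and 0.000283, edgeR). Of the 6 tested genes with the symbol TPS, 0 were called by genotype in any medium by edgeR. At an unadjusted p under 0.05, 2 were lower in medium labelled phosphate-free, 1 was lower in medium labelled nitrate-free and 1 was higher in full medium, and DESeq2 called 1 lower, in medium labelled phosphate-free.

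Among the cis-prenyltransferase genes besides MpCPT5, 0 of 3 tested were called lower in Mpwrky10 in any medium by edgeR or DESeq2, and 1 was lower at an unadjusted p under 0.05, in medium labelled phosphate-free. MpCPT2 rose in medium labelled nitrate-free (0.42, SE 0.119, adjusted p = 0.0168, edgeR), a call lost without replicate 2 or 3 of Mpwrky10 (adjusted p = 0.0551 and 0.0602) or of Tak-1 (0.0539 and 0.0649) in that medium.

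**Figure D4:**
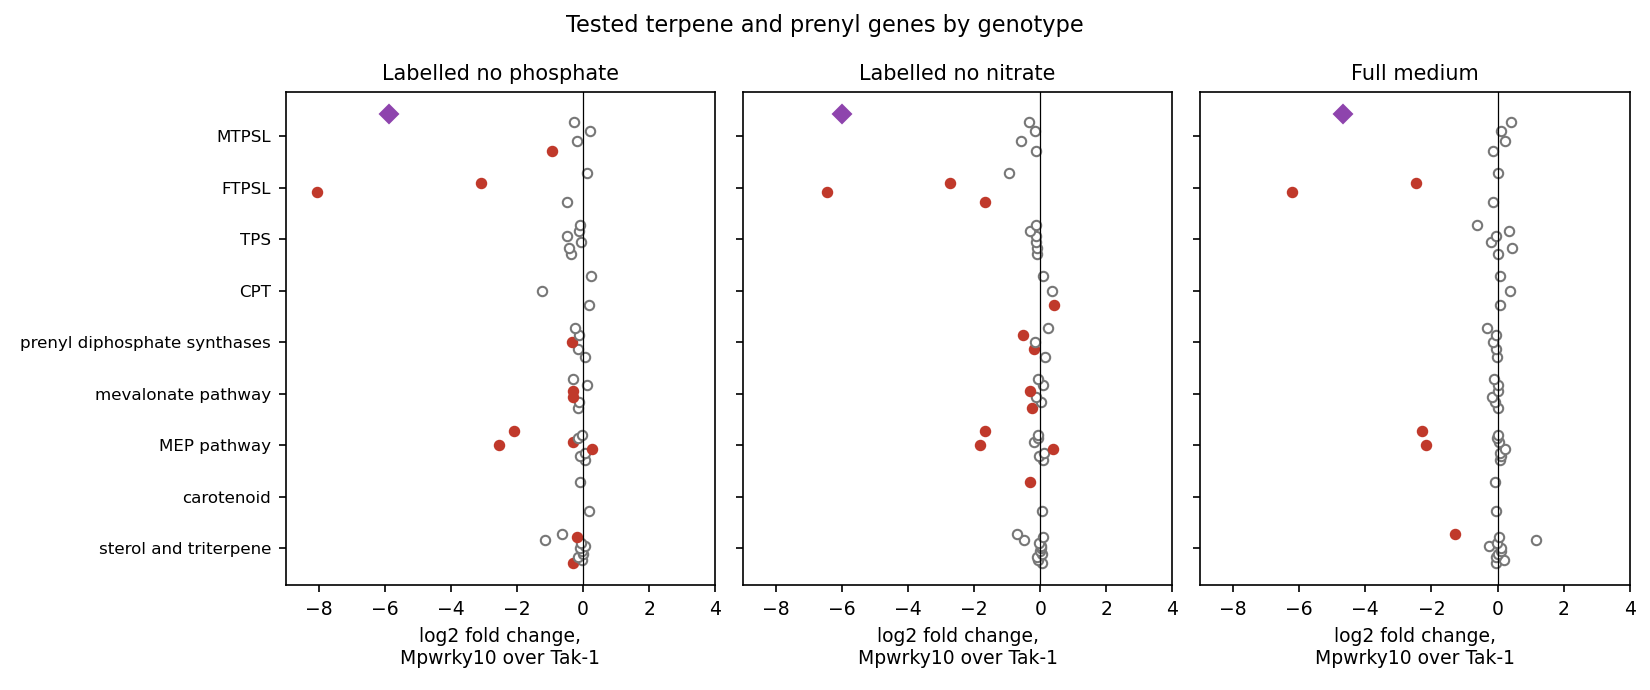
Log2 fold change of Mpwrky10 over Tak-1 (horizontal axes) for tested terpene and prenyl genes, by list and labelled medium. Filled red circles passed the adjusted threshold of 0.05, open circles did not, diamonds mark MpMTPSL2 (no test), and MpCPT5 and MpMTPSL22 are not drawn because the mutant libraries held 0 or 1 counts of each. MpFTPSL2 lies at -8.05, -6.45 and -6.22, and most other genes lie near 0.

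The medium also moved many of the 51 genes. In Tak-1, 25 of the 51 genes rose and 10 fell in medium labelled phosphate-free against full medium, where 26.3% of all tested genes rose and 22.9% fell. In medium labelled nitrate-free 23 rose and 3 fell (20.6% and 13.9% of all tested genes), and 15 rose without replicate 2 of Tak-1 labelled nitrate-free. In Mpwrky10, 13 rose and 11 fell in medium labelled phosphate-free (20.3% and 16.8% of all tested genes), with 6 falling without replicate 1 in full medium and 7 without replicate 2 labelled phosphate-free. In Mpwrky10, 19 rose and 5 fell in medium labelled nitrate-free (23.2% and 16.2%). Without the 6 TPS genes, 45 genes were left, of which 19 rose in medium labelled phosphate-free and 17 in medium labelled nitrate-free in Tak-1, and 7 and 13 rose in these media in Mpwrky10. MpDXS2, MpDXR2 and MpFTPSL2 rose in Tak-1 in medium labelled phosphate-free, by log2 fold changes of 1.07, 1.38 and 1.26, beside the 1.13 of MpMTPSL2 and the 1.21 of MpCPT5. All 6 tested TPS genes rose in Tak-1 and in Mpwrky10 in both deficient media, with MpTPS6 the farthest in Tak-1 (3.91 in medium labelled phosphate-free and 4.28 in medium labelled nitrate-free). The rise of MpTPS4 in Tak-1 labelled nitrate-free was not called without replicate 3 of that group (adjusted p = 0.0627, edgeR) or replicate 3 in full medium (0.0685). Comparisons against full medium within a genotype share the full-medium libraries.

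Markers of oil body cells were present in every group. The 4 genes MpABCG1 (an oil body membrane transporter), MpSYP12B (a syntaxin of that membrane), and the transcription factors MpERF13 and MpC1HDZ summed to 68.3 to 73.8 CPM in Mpwrky10 labelled phosphate-free against 87.9 to 97.5 CPM in Tak-1. They summed to 64.4 to 69.2 CPM in Mpwrky10 and 70.9 to 75.4 CPM in Tak-1 in medium labelled nitrate-free, and to 61.5 to 75.0 CPM in Mpwrky10 and 69.3 to 79.2 CPM in Tak-1 in full medium. None of the 4 was at 0 in any group. In medium labelled phosphate-free 3 of 4 fell, where 3.95% of all tested genes were called lower, MpABCG1 by a log2 fold change of -0.59 (adjusted p = 0.000722, edgeR). In medium labelled nitrate-free or full medium 0 were called by edgeR, DESeq2 or an unadjusted p under 0.05. The calls of MpSYP12B (-0.48, adjusted p = 0.0272) and MpERF13 (-0.73, adjusted p = 0.0459) in medium labelled phosphate-free were lost without replicate 3 of Mpwrky10 (0.130 and 0.0822), replicate 2 of Mpwrky10 (0.0682 and 0.108) or replicate 3 of Tak-1 (0.0818 and 0.130) in that medium. That of MpSYP12B was also lost without replicate 2 of Tak-1 (0.106), and that of MpERF13 without replicate 1 of either genotype in that medium or without any of 4 libraries from other media (0.0504 to 0.156). The 3 called markers moved in the direction of the pair in medium labelled phosphate-free, by far less. MpC1HDZ was not called there, but at an unadjusted p under 0.05 it too was lower, as were all 4 markers. The part of oil body cells in the pair's levels was not tested. The male-organ genes MpDUO1 and MpPRM summed to 0.443 to 1.66 CPM in Mpwrky10 and 0.393 to 1.23 CPM in Tak-1.

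Lastly, the genes whose levels were most like the pair's were sought by Pearson correlation of log2 CPM over the 18 libraries, among genes with a mean of at least 1 CPM. The libraries form separate mutant and wild-type clusters for these genes, so r over all 18 serves only to rank likeness. The same 5 genes were nearest to both members: MpNPF24, MpFTPSL2, MpPPO17, MpDFR-like1 and Mp5g06070, with r of 0.982 to 0.990 to MpMTPSL2 and 0.990 to 0.997 to MpCPT5. The members had an r of 0.993 to each other over all libraries and 0.952 within the 9 Tak-1 libraries, of which those labelled phosphate-free lie apart. Within the 6 Tak-1 libraries of full medium and medium labelled nitrate-free it was 0.862.

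MpNPF24, a member of the NPF transporter family by its symbol, had 0 counts in all 9 Mpwrky10 libraries against 4.73 to 17.1 CPM in Tak-1. That put it at least 334-fold lower in medium labelled phosphate-free and at least 136-fold lower in full medium. With 1 mutant library fewer these bounds dropped, to 216-fold without replicate 2 of Mpwrky10 labelled phosphate-free and to 82.9-fold without replicate 3 of Mpwrky10 in full medium. Mp5g06070, without a symbol, had 0 to 0.210 CPM in Mpwrky10 against 10.4 to 21.3 CPM in Tak-1. MpFTPSL2 had 0.0925 to 0.292 CPM in Mpwrky10 against 15.0 to 41.9 CPM in Tak-1. For MpDFR-like1 and MpPPO17, a polyphenol oxidase by its symbol, the gap was narrower, with 1.43 to 2.37 CPM in Mpwrky10 against 9.15 to 16.0 CPM in Tak-1, and 10.2 to 14.3 CPM in Mpwrky10 against 72.1 to 124 CPM in Tak-1.

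**Figure D5:**
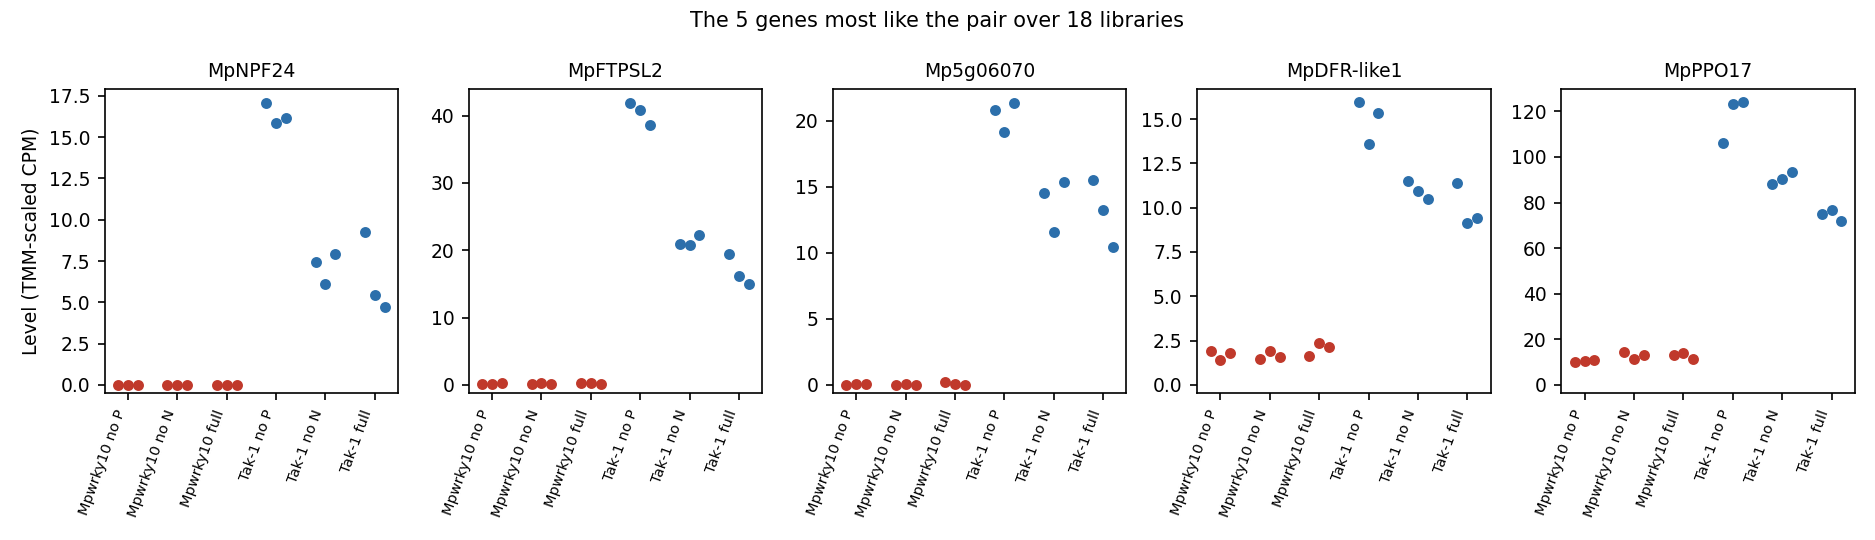
Levels (TMM-scaled CPM, vertical axes, which differ between panels) of the 5 genes most like the pair, in each library, by genotype and labelled medium. Points are libraries. All Mpwrky10 libraries (red) lie below all Tak-1 libraries (blue), and Tak-1 is highest in medium labelled phosphate-free for each of the 5 genes. The genes were picked for likeness to the pair over these same libraries, so the shared pattern follows from the choice.

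A level below 1 CPM in all 9 Mpwrky10 libraries and above 4 CPM in all 9 Tak-1 libraries was shared by 10 tested genes, the pair among them, and 2 genes had the opposite pattern, Mp6g10280 and Mp7g00670. The 8 genes besides the pair were MpFTPSL2, MpNPF24, the consecutive loci MpPPO8 (Mp5g14430) and MpPPO9 (Mp5g14440), Mp2g03280, Mp2g25320, Mp5g06070 and Mp8g13380. These limits were set with the pair's values in view. Just outside them, Mp2g07410 had a lowest Tak-1 library of 3.83 CPM and MpGT61.5 a highest Mpwrky10 library of 1.02 CPM.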

How the data were processed

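Poly(A)-selected, directional libraries were made from total RNA of whole plants, per the labels' protocols. STAR 2.7 and DESeq2 are listed, with no role, per the submitters' processing notes. The counting program, its strand setting, its handling of shared reads and the genome build are not given in the sources used here. The deposited table holds raw read counts per gene for 18 Marchantia libraries, and the authors' lettuce table was not used. Gene symbols came from a RefSeq name table of assembly MpTak2_v7.1, in which 17384 of 18391 entries matched, so no coordinates are printed.

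Counts were tested with edgeR 4.0.16 in R 4.3.3 (TMM scaling, filterByExpr, robust quasi-likelihood F-test, 1 term per group over 18 libraries). Of 19355 genes, 13016 were tested, with Benjamini-Hochberg adjustment over all of them and a threshold of 0.05. Both members passed the filter. Levels are CPM on TMM-scaled library sizes (factors 0.972 to 1.06). The procedure was checked on simulated data. The SE of a fold change was derived from its F statistic, not taken from the fit. Shares carry 95% exact intervals. The genes named were the pair, MpWRKY10, every other MTPSL and CPT gene with a mean of at least 1 CPM, up to 4 genes with the smallest adjusted p from each further list, neighbours called by genotype, and the 5 genes most like each member. From each list those with the firmest or most fragile calls are printed. The pair and all lists were chosen with earlier results of these data known, and list symbols were fitted to the name table. Alternatives were DESeq2 1.42.0, library totals without TMM, no filter, a replicate block and leaving out each library.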

Additional observations from a re-analysis of the deposited data

Results flagged for a closer look

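In 5 genes the difference between Mpwrky10 and Tak-1 itself differed between media, by the interaction term of the edgeR model with Benjamini-Hochberg adjustment. The locus after the pair, Mp3g18520, was raised less in medium labelled phosphate-free than in full medium (interaction -1.05 on the log2 scale, SE 0.198, adjusted p = 0.0243), a call lost when any of 6 libraries was left out (adjusted p 0.0572 to 0.0885). Mp3g18540 had an interaction of -0.743 (SE 0.104, adjusted p = 0.00267) in medium labelled phosphate-free, being lower in Mpwrky10 there and higher in full medium. MpMTPSL8 had an interaction of -0.797 (SE 0.115, adjusted p = 0.00318) in medium labelled phosphate-free. MpIDS4 had an interaction of -0.490 (SE 0.114, adjusted p = 0.0300) in medium labelled nitrate-free, lost when any of 7 libraries was left out (0.0549 to 0.0820). MpWRKY10 had an interaction of 0.667 (SE 0.168, adjusted p = 0.0424) in medium labelled nitrate-free, lost when any of 12 libraries was left out (0.0508 to 0.120). These genes were picked out from 58 named genes after all were tested. Over all tested genes, 0.307% were called for the interaction in medium labelled phosphate-free and 2.13% for that in medium labelled nitrate-free. Some of the 58 were named for a small adjusted p in any comparison, interactions included, a choice that favours such calls. DESeq2 called an interaction in 13 named genes, these 5 and MpTPS5, MpHMG, MpHMGS, MpHDS, MpLCY-like2, MpABCG1, MpPOD34 and MpTRIHELIX32, and edgeR with the replicate block called 6, these 5 and MpTPS5.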

How the results depend on the processing

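For MpMTPSL2, every fitted fold change by genotype kept its direction under DESeq2, library totals without TMM, no filter, the replicate block and each library left out. The replicate block gave no value for the shares of the Tak-1 level or for likeness. Over the leave-outs, MpMTPSL2 ranged from -6.03 to -5.73 in medium labelled phosphate-free, -6.21 to -5.80 in medium labelled nitrate-free and -4.83 to -4.49 in full medium. In Tak-1, medium labelled phosphate-free over full medium ranged from 0.988 to 1.33 for MpMTPSL2 and from 0.957 to 1.42 for MpCPT5. The bound for MpCPT5 labelled nitrate-free ranged from 117 to 186. With library totals without TMM, MpMTPSL2 in Tak-1 labelled nitrate-free over labelled phosphate-free was -1.11, terpene and prenyl genes called higher in Mpwrky10 labelled phosphate-free numbered 0, those lower in Tak-1 labelled nitrate-free over full medium 5, and those lower in Mpwrky10 labelled phosphate-free over full medium 7. Without the filter, those called higher in Mpwrky10 labelled phosphate-free also numbered 0. Without the genes of symbol TPS, a choice made after seeing the data, those called higher in Mpwrky10 labelled phosphate-free over full medium numbered 7. DESeq2 called 2 PTB genes higher in Tak-1 labelled phosphate-free. Over the leave-outs, terpene and prenyl genes called higher in Mpwrky10 ranged from 0 to 1 in medium labelled phosphate-free and 1 to 2 in medium labelled nitrate-free, those higher in Tak-1 labelled nitrate-free over full medium from 15 to 23, those lower in Mpwrky10 labelled phosphate-free over full medium from 6 to 11, called neighbours in full medium from 2 to 4, and PTB genes higher in Tak-1 labelled phosphate-free from 1 to 2. MpWRKY10 in Tak-1 labelled nitrate-free over full medium ranged from 0.157 to 0.375, and its interaction in that medium from 0.530 to 0.787. The cause of these shifts was not tested. In 0 of 9 comparisons did every same-numbered pair of deviations correlate above 0.1, a rule that cannot exclude pairing by replicate number. All 3 replicates correlated best with their own number for Mpwrky10 over Tak-1 labelled nitrate-free (r 0.0589 to 0.222). The same held in Mpwrky10 for labelled nitrate-free over labelled phosphate-free (r 0.077 to 0.224), and in the other comparisons fewer than 3 did. With the replicate block MpMTPSL2 in Tak-1 labelled nitrate-free over full medium was 0.11. Depth limits MpCPT5 in the mutant, where a library held at most 1 count.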
